A study of Mus musculus with 24 samples.

Results

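The RNA of 10 secreted growth factor genes was followed in mouse bone marrow-derived macrophages with and without TGF-β1. The genes, matched by symbol, were the platelet-derived growth factors Pdgfa, Pdgfb and Pdgfc, the vascular endothelial growth factors Vegfa and Vegfb, the angiopoietin-like factors Angptl2 and Angptl4, the cytokine Osm, the insulin-like growth factor Igf1 and the EGF family ligand Hbegf. They are 10 of the 54532 genes in the deposited table, and all 10 passed the filter on low counts that left 14261 genes for testing. The 24 libraries fall into 8 groups of 3. Macrophages came from C57BL/6 mice 2 to 3 months of age. One line carried a floxed Smad2 gene (Smad2 fl/fl) without or with the LyzM-Cre recombinase (MyS2KO), and the other a floxed Smad3 gene (Smad3 fl/fl) without or with LyzM-Cre (MyS3KO). Each genotype was left untreated or given TGF-β1 at 10 ng/ml for 4 hours, after about 16 hours without serum. LyzM-Cre is driven by the lysozyme gene Lyz2 and acts in myeloid cells in general, and the floxed groups carry no Cre, so Cre and the deletion were not separated. All cells had been grown with the macrophage growth factor CSF-1, and with IL-3 from WEHI-3 medium in the first step.

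TGF-β1 signals through a receptor kinase pair that phosphorylates SMAD2 and SMAD3, which then act on genes together with SMAD4. Macrophages release factors that act on other cells of a healing tissue. PDGF chains form dimers that drive fibroblasts and mural cells through the receptors PDGFRα and PDGFRβ. VEGFA acts on endothelial cells through VEGFR2, IGF1 and HB-EGF promote growth and survival through IGF1R and the EGF receptors, and oncostatin M signals through gp130. The design asks how the response to TGF-β1 differs when Smad2 or Smad3 is deleted in myeloid cells.

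The stretches upstream of 4 of the genes are printed because they set members that rose with TGF-β1 (Angptl2, Vegfa) beside family members that did not pass the test (Pdgfc, Vegfb). Each is the 250 bases before a RefSeq gene start (build GRCm38.p6), read 5′ to 3′ on the strand of the gene, with none of its bases in an annotated exon. Capitals mark matches, on either strand, to 3 motifs known to be bound by SMAD proteins: the SMAD box CAGAC and the GC-rich motifs GGCGC and GGCCG, which can overlap one another.
Angptl2 (chr2:33215711-33215960, plus strand): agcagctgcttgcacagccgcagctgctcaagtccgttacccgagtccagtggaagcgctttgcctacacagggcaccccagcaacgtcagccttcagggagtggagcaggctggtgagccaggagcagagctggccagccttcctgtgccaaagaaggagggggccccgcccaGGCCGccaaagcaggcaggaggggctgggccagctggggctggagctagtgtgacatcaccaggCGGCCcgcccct
Vegfa (chr17:46032378-46032627, minus strand): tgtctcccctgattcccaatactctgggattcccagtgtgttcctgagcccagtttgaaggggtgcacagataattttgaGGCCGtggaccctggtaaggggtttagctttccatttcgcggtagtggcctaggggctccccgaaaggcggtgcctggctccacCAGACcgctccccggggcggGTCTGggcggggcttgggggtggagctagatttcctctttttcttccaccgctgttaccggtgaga
Pdgfc (chr3:81036166-81036415, plus strand): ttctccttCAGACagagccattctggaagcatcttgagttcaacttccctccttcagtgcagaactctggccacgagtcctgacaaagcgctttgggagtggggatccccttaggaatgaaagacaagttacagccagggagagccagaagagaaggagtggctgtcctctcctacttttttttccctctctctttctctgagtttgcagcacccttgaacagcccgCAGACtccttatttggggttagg
Vegfb (chr19:6987652-6987901, minus strand): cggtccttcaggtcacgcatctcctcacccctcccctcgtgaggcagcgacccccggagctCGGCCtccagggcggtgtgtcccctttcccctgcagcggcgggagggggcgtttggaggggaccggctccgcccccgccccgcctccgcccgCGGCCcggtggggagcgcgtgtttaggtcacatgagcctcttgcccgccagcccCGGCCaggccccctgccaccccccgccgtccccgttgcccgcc
CAGAC matched 2 times upstream of Vegfa and 2 times upstream of Pdgfc, and GGCCG 2 times upstream of Angptl2, 1 time upstream of Vegfa and 3 times upstream of Vegfb. GGCGC matched in none of the 4 stretches. Over 32851 windows of the same length in the RefSeq table, 42.2% held CAGAC, 30.4% GGCCG and 32% GGCGC, so each of these matches is common. The windows of Pdgfa and Igf1 overlap annotated exons and are not shown. RefSeq windows matched 6 of the 10 members, and Pdgfb, Osm, Angptl4 and Hbegf are named only.

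Depth was 16.9 M to 24.9 M counted reads per library. Levels below are CPM, the read count scaled to the library total after TMM normalization, given for libraries 1, 2 and 3 of a group in that order. A ± after a mean is the SD of 3 libraries and a ± after a log2 difference is its standard error. Nothing in the labels ties the 3 libraries to separate mice or cultures. The p-values therefore measure the spread among these libraries, which may be technical. The 10 macrophage markers (Adgre1, Csf1r and others) summed to 15886 to 32589 CPM. Fibroblast markers, which include a PDGF receptor, summed to at most 2.51 CPM, mast cell and basophil markers to at most 0.562, lymphoid markers to at most 4.08 and neutrophil markers to at most 18.3. The 6 endothelial markers summed to 56.5 to 180 CPM, and 4 of them passed the filter on low counts. Cldn5 had no read in any library and Tek had at most 0.157 CPM in any group. Kdr had group means of 29.9 to 123 CPM and Vwf of 6.49 to 48 CPM. In treated Smad3 fl/fl Vwf (34.6 CPM) lay above Kdr. Megakaryocyte and platelet markers summed to 68.9 to 265 CPM, with Pf4 the highest (group means of 101 to 241 CPM), and dendritic cell markers to 14.1 to 39.8 CPM, with Xcr1 the highest (19.8 to 35.4 CPM). On the first principal component, which held 36.9% of the variance, 5 of the 6 Smad3 fl/fl libraries lay at 51.1 or above, the untreated library 3 lay at 3.28, and no library of another group exceeded 15.3. The share of reads on ribosomal protein genes was 0.836% to 1.37% in Smad3 fl/fl libraries against 1.46% to 2.19% in the rest. The part of these library differences in the results below was not tested.

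Smad2 RNA was 42.2 ± 2.98 CPM in untreated Smad2 fl/fl and 40.4 ± 2.9 CPM in untreated MyS2KO (log2 difference -0.06 ± 0.12, edgeR quasi-likelihood adjusted p = 0.924), so its gene-level count did not follow the label. The submitters report the loss of Smad2 and Smad3 from other assays, qPCR and western blot, and a gene-level count includes exons outside a deleted stretch. These are therefore called the libraries labelled MyS2KO. Lyz2 RNA was 6075 ± 760 CPM in them untreated and 11232 ± 399 CPM in untreated Smad2 fl/fl, with no overlap. It was not called (-0.89 ± 0.37, edgeR adjusted p = 0.502), nor with TGF-β1 (-0.96 ± 0.37, adjusted p = 0.367). In the Smad3 line Lyz2 was not called either (-0.48 ± 0.37 untreated and -0.06 ± 0.37 treated). Smad3 RNA was 424 ± 48.2 CPM in untreated Smad3 fl/fl and 184 ± 24 CPM in untreated MyS3KO (-1.21 ± 0.14, edgeR adjusted p = 6.91e-06), and 415 ± 23.1 against 268 ± 19.8 CPM with TGF-β1 (-0.63 ± 0.13, adjusted p = 0.00208). In the 2 groups of untreated Smad2-line libraries Smad3 was 41.5 and 31.3 CPM, below untreated MyS3KO as well as Smad3 fl/fl. The lines thus differed in Smad3 level before any treatment (3.35 ± 0.15 for Smad3 fl/fl over Smad2 fl/fl, edgeR adjusted p = 1.12e-12).

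TGF-β1 raised the RNA of 5 of the 10 factors, Pdgfa, Pdgfb, Vegfa, Osm and Angptl2, in all 4 genotypes. Angptl2 had the largest responses, 16.1-fold to 19.5-fold in mean CPM, followed by Pdgfa (7.47-fold to 15.9-fold) and Pdgfb (4.71-fold to 11.5-fold), and Vegfa the smallest of the 5 (1.74-fold to 2.71-fold). Among all tested genes, 7.37% were called higher in Smad2 fl/fl, 2.9% in the libraries labelled MyS2KO, 6.38% in Smad3 fl/fl and 6.54% in MyS3KO. The median log2 change of the 10 members was 1.11, 0.65, 0.89 and 1.38 in those genotypes, against 0.01, 0.01, -0.03 and 0.00 over all tested genes. Igf1 was the only member called lower, in MyS3KO alone, where 3.47% of all genes were called lower. Treated and untreated libraries did not overlap for 6, 5, 6 and 6 members in the same order, against 33.8%, 18.4%, 28.4% and 24.9% of all genes. In these bulk samples a change in the number of cells making a factor and a change in RNA per cell cannot be told apart. For the libraries labelled MyS2KO, and more clearly for Smad3 fl/fl, libraries of the same number deviated together. In the former the highest r between unlike numbers (0.29) exceeded that of the libraries numbered 1 (0.25). In both genotypes a model with the replicate number as a block called the same counts of members. Over all genes it called 1032 in place of 486 and 3306 in place of 1714.

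Pdgfa (chr5:138976014-138997370, GRCm38, minus strand) encodes the PDGF A chain. In Smad2 fl/fl it was 2.55, 3.5 and 2.02 CPM untreated and 37.7, 47.6 and 41.2 CPM with TGF-β1. In the libraries labelled MyS2KO it was 3.33, 2.07 and 3.22 CPM and then 25.8, 17.1 and 21.5 CPM. In Smad3 fl/fl the values were 1.88, 6.53 and 2.82 CPM and then 39.8, 35.8 and 36.8 CPM, and in MyS3KO 2.03, 0.987 and 1.08 CPM and then 22.1, 21.8 and 21.3 CPM. Treated and untreated libraries did not overlap in any genotype, and both treated knockout groups lay below every treated floxed library. The log2 responses were 3.97 ± 0.33 in Smad2 fl/fl, 2.91 ± 0.32 in the libraries labelled MyS2KO, 3.33 ± 0.32 in Smad3 fl/fl and 4.01 ± 0.35 in MyS3KO, with the largest adjusted p at 2.51e-06. Pdgfa shares 813 of its 3119 annotated exon bases with the antisense gene 6330403L08Rik. That gene was at 0.979 CPM untreated and 7.47 CPM with TGF-β1 in Smad2 fl/fl, and its log2 responses ran from 2.58 to 3.09 over the genotypes, all called. The strand setting of the counting is not given in the sources used here, so reads in the shared bases cannot be assigned to one of the pair.

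Pdgfb (chr15:79995874-80014977, minus strand) encodes the PDGF B chain, the partner of the A chain in PDGF-AB. It was 14.5, 34 and 16.2 CPM in untreated and 152, 182 and 141 CPM in treated Smad2 fl/fl. The libraries labelled MyS2KO held 19.8, 12.7 and 29.9 CPM and then 100.4, 76.5 and 117 CPM. Smad3 fl/fl libraries held 25.7, 24.1 and 15.5 CPM and then 207, 172 and 151 CPM, and MyS3KO libraries 5.07, 8.24 and 8.38 CPM and then 85.1, 82.7 and 82 CPM. All 3 untreated MyS3KO libraries lay below every other library of the series for this gene, and the treated groups stood clear of the untreated ones in each genotype. The log2 responses were 2.88 ± 0.31, 2.24 ± 0.30, 3.02 ± 0.31 and 3.52 ± 0.32 in the order used for Pdgfa, with the largest adjusted p at 3.49e-05.

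Pdgfc (chr3:81036416-81214040, plus strand) encodes a chain with a CUB domain that must be cleaved before it binds its receptor. Its libraries lay between 2.76 and 6.24 CPM over all 8 groups, and treated and untreated libraries overlapped in each genotype. The log2 responses ran from -0.09 to 0.29, none called, and the 95% intervals reached from -0.56 to 0.76 at their widest. The antisense gene Gm16000 shares 147 exon bases with Pdgfc and had 3 reads in all.

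**Figure D1:**
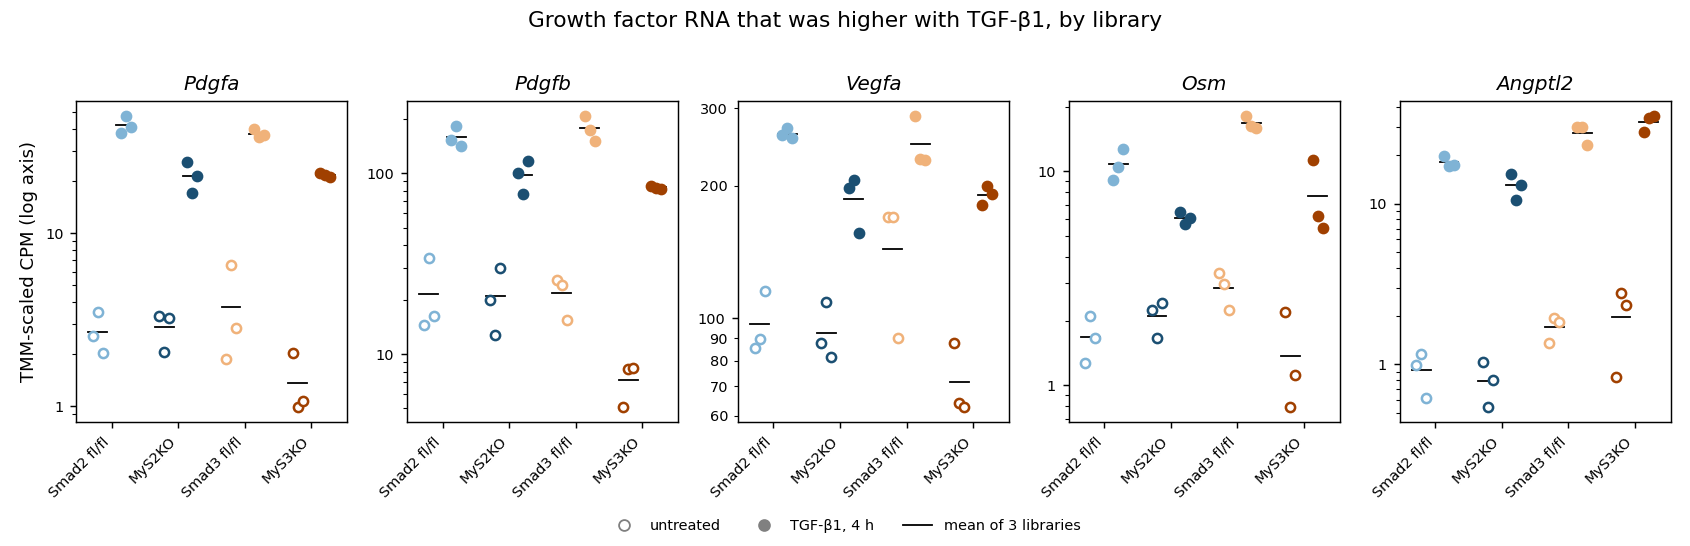
RNA of Pdgfa, Pdgfb, Vegfa, Osm and Angptl2 in each of the 24 libraries, as CPM on a log axis, by genotype; open points are untreated, filled points had TGF-β1, and bars are means of 3 libraries. For Pdgfa, treated libraries lay between 17.1 and 47.6 CPM and untreated ones between 0.987 and 6.53 CPM.

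Vegfa (chr17:46016993-46032369, minus strand) encodes the main angiogenic VEGF ligand. It was 85.8, 89.8 and 115 CPM in untreated and 261, 271 and 257 CPM in treated Smad2 fl/fl, and 87.8, 109 and 81.8 CPM and then 198, 206 and 156 CPM in the libraries labelled MyS2KO. In Smad3 fl/fl, untreated libraries held 170.0, 170.2 and 90.1 CPM and treated ones 288, 230.2 and 229 CPM. In MyS3KO it was 87.8, 64.3 and 62.7 CPM and then 181, 199 and 192 CPM. The untreated Smad3 fl/fl library 3 lay at the level of the Smad2 line, whereas libraries 1 and 2 stood above every other untreated library. The log2 responses were 1.44 ± 0.20, 1.01 ± 0.20, 0.80 ± 0.20 and 1.41 ± 0.20, with adjusted p of 0.00769 in Smad3 fl/fl and at most 0.00264 elsewhere. In Smad3 fl/fl the response was 0.66 (adjusted p = 0.0583) without the treated library 1 and 0.61 (adjusted p = 0.0535) without both libraries numbered 3.

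Vegfb (chr19:6982473-6987651, minus strand), a VEGFR1 ligand, ranged from 6.98 to 15.9 CPM over all libraries. Its log2 responses were 0.01 ± 0.24 in Smad2 fl/fl, -0.19 ± 0.25 in the libraries labelled MyS2KO, -0.20 ± 0.25 in Smad3 fl/fl and -0.18 ± 0.24 in MyS3KO, none called. The 95% intervals of these responses lay between -0.71 and 0.51. A rise of the size seen for Vegfa in Smad2 fl/fl lies outside these intervals.

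Angptl2 (chr2:33216069-33247717, plus strand) encodes a secreted protein that binds integrin α5β1 and the receptor PirB. Untreated libraries held 0.995, 1.17 and 0.623 CPM in Smad2 fl/fl, 1.03, 0.54 and 0.805 CPM in the libraries labelled MyS2KO, 1.36, 1.94 and 1.83 CPM in Smad3 fl/fl and 0.835, 2.76 and 2.34 CPM in MyS3KO. With TGF-β1 the values were 19.9, 17.1 and 17.4 CPM, 15.3, 10.6 and 13.1 CPM, 29.9, 29.8 and 23.1 CPM, and 27.9, 34 and 35.2 CPM. Every treated library exceeded every untreated library of the series. The log2 responses were close to one another, 4.28 ± 0.31, 4.05 ± 0.32, 4.01 ± 0.29 and 4.01 ± 0.29, with the largest adjusted p at 1.13e-08. Itga5, the α5 chain of that integrin, rose in all 4 genotypes (log2 1.2, 0.77, 0.91 and 1.54), and Pirb fell in 3 of them (-0.85, -1.25 and -0.75), and changed by -0.48 ± 0.17 in the libraries labelled MyS2KO (adjusted p = 0.162).

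Angptl4 (chr17:33773750-33781575, minus strand) encodes an inhibitor of lipoprotein lipase. Its counts were low and uneven. Untreated libraries held 3.7, 3.82 and 2.23 CPM in Smad2 fl/fl, 3.7, 1.22 and 5.84 CPM in the libraries labelled MyS2KO, 1.32, 0 and 0.329 CPM in Smad3 fl/fl and 0.238, 2.42 and 1.22 CPM in MyS3KO. Treated libraries held 6.22, 7.22 and 3.34, then 3.3, 3.62 and 5.58, then 1.99, 0.792 and 0.56, and last 1.04, 3.57 and 5.37 CPM. The groups overlapped within each genotype, and the log2 responses of 0.78 ± 0.69, 0.22 ± 0.70, 0.99 ± 0.84 and 1.36 ± 0.74 were not called. Their 95% intervals reached from -1.22 to 2.90, so this spread limits the size of change that could be detected. In MyS3KO the response was called with no low-count filter (1.32, adjusted p = 0.00607) and with the replicate block (1.44, adjusted p = 0.0423). The replicate numbers did not pair treated with untreated MyS3KO libraries, however (r = 0.07 for those numbered 2).

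Osm (chr11:4236420-4241026, plus strand) encodes oncostatin M, an IL-6 family cytokine of activated macrophages. Smad2 fl/fl libraries held 1.27, 2.12 and 1.66 CPM untreated and 9.08, 10.5 and 12.8 CPM with TGF-β1. The libraries labelled MyS2KO held 2.24, 1.67 and 2.41 CPM and then 6.48, 5.7 and 6.07 CPM. Smad3 fl/fl libraries held 3.35, 2.97 and 2.25 CPM and then 18.2, 16.2 and 15.9 CPM, and MyS3KO libraries 2.21, 0.789 and 1.12 CPM and then 11.3, 6.2 and 5.45 CPM. Treated libraries lay above untreated ones in each genotype, and treated knockout libraries below treated floxed libraries of their line. The log2 responses were 2.68 ± 0.31, 1.53 ± 0.30, 2.55 ± 0.30 and 2.49 ± 0.32, with the largest adjusted p at 0.00293.

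Igf1 (chr10:87858265-87937042, plus strand) encodes insulin-like growth factor 1, and its libraries lay between 139 and 288 CPM. Smad2 fl/fl libraries held 213, 159 and 166 CPM untreated and 152, 151 and 161 CPM treated, and the libraries labelled MyS2KO 204, 225 and 139 CPM and then 182, 175 and 159 CPM. Smad3 fl/fl libraries held 243, 258 and 197 CPM and then 194, 198 and 184 CPM, so treated and untreated libraries overlapped in these 3 genotypes. Untreated MyS3KO libraries held 241, 288 and 285 CPM and treated ones 169, 201 and 191 CPM, with no overlap. The log2 change there was -0.54 ± 0.15 (adjusted p = 0.0251), and it was -0.21 ± 0.15, -0.14 ± 0.15 and -0.28 ± 0.15 in Smad2 fl/fl, the libraries labelled MyS2KO and Smad3 fl/fl, none called. The difference in response between MyS3KO and Smad3 fl/fl was -0.26 ± 0.22 (adjusted p = 0.753), so the call in MyS3KO does not show a response that differs from the floxed one. The call was lost with scaling by library total (adjusted p = 0.134) and without untreated library 2 or 3, treated library 1 or 3, or both libraries numbered 1.

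Hbegf encodes heparin-binding EGF-like growth factor, which is made as a membrane protein and released by the protease ADAM17. It was 2.03, 1.91 and 2.13 CPM in untreated and 0.889, 0.705 and 1.67 CPM in treated Smad2 fl/fl, and 3.67, 2.66 and 2.4 CPM and then 1.86, 1.41 and 1.68 CPM in Smad3 fl/fl. Treated floxed libraries lay below untreated ones in both lines, but the log2 changes of -0.90 ± 0.37 (adjusted p = 0.125) and -0.82 ± 0.35 (adjusted p = 0.143) were not called. The libraries labelled MyS2KO held 1.7, 1.67 and 1.51 CPM and then 1.14, 2.33 and 2.15 CPM, and MyS3KO libraries 1.73, 0.691 and 0.842 CPM and then 0.981, 1.04 and 0.639 CPM, with overlap in both. Without the treated Smad2 fl/fl library 3 the change in that genotype was -1.34 (adjusted p = 0.0395).

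**Figure D2:**
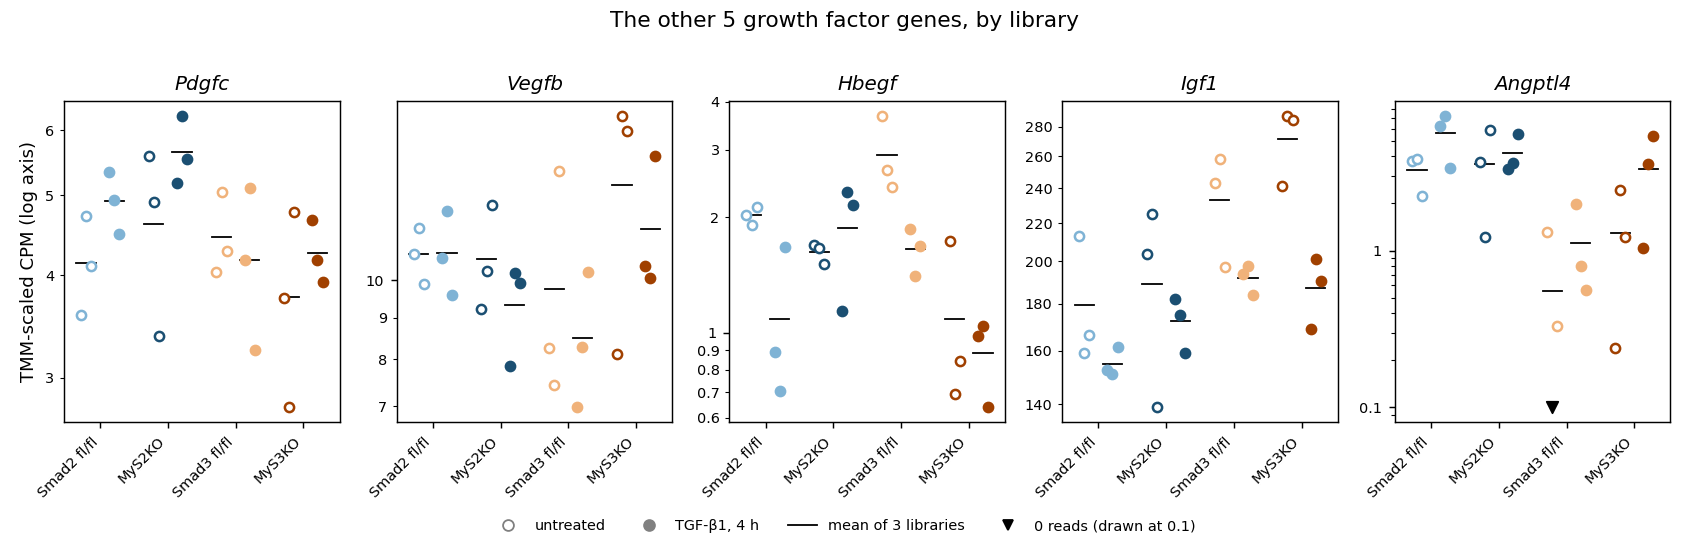
RNA of Pdgfc, Vegfb, Hbegf, Igf1 and Angptl4 in each library, as CPM on a log axis with its own range per gene; symbols are as for the 5 genes that rose, and the triangle marks the 1 library with 0 reads. Igf1 lay between 139 and 288 CPM, and its treated and untreated libraries stood apart in MyS3KO.

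**Figure D3:**
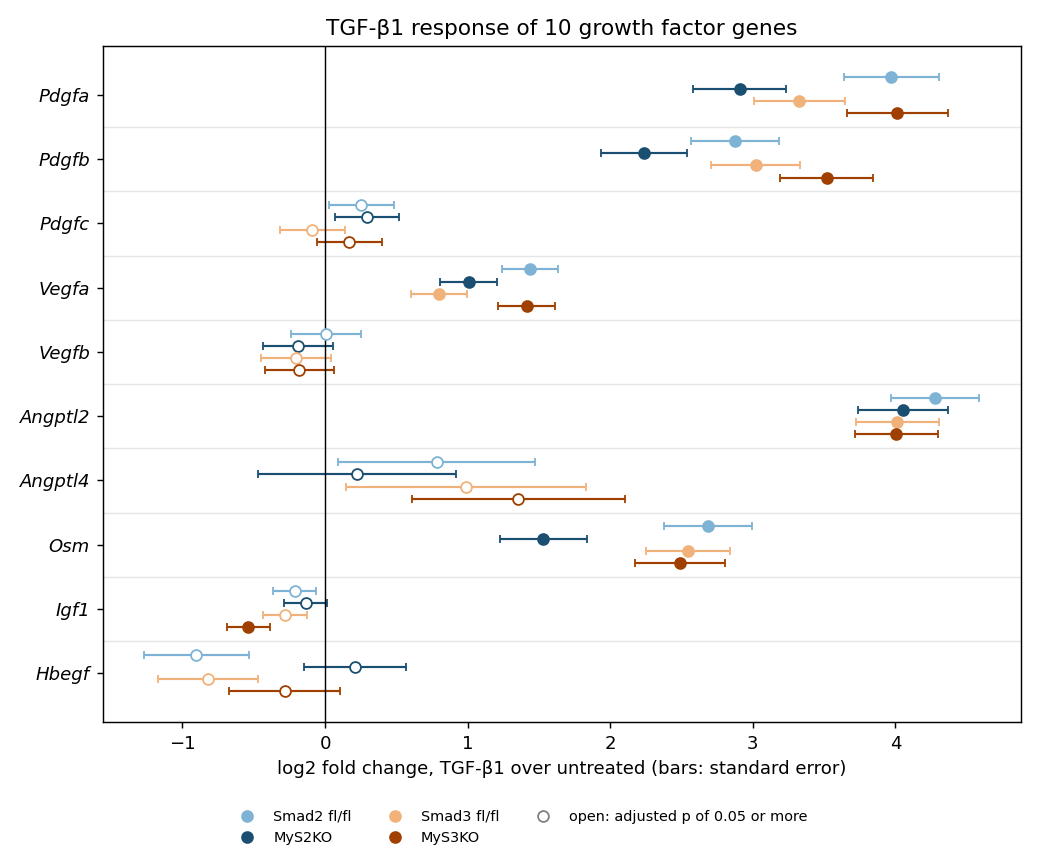
Log2 fold change with TGF-β1 (horizontal axis) for the 10 genes in 4 genotypes, with standard errors; filled points passed an adjusted p of 0.05. Pdgfa, Pdgfb, Vegfa, Osm and Angptl2 are filled in all genotypes, from 0.80 for Vegfa in Smad3 fl/fl to 4.28 for Angptl2 in Smad2 fl/fl.

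Levels of different genes were set side by side in the deposited FPKM, which divide by a length per gene. That length was 1963 bases for Igf1, 1535 for Pdgfb and 1230 for Vegfa. The length column of the deposited table gives 9904, 4161 and 4285 bases. The order between genes below therefore depends on the length used, and an order with the other length was not tested. In untreated Smad2 fl/fl, Igf1 (86.4 ± 20.1 FPKM) and Vegfa (73.8 ± 10.8) were highest and overlapped, Pdgfb (13 ± 5.85) and Vegfb (10.5 ± 0.955) followed and overlapped, and Pdgfa (2.28), Angptl4 (2.03), Pdgfc (1.31), Osm (1.03), Hbegf (0.8) and Angptl2 (0.351) came last. With TGF-β1 the order in that genotype was Vegfa (214 ± 7.41), Pdgfb (103 ± 14.1), Igf1 (79 ± 2.03) and Pdgfa (38.3 ± 4.27), with no overlap between neighbours, and then Vegfb (11.2), Angptl2 (7.33) and Osm (7.08). Pdgfb exceeded Igf1 after treatment in both floxed groups, with overlap of the libraries in Smad3 fl/fl (128 ± 26.3 against 108 ± 8.06). In the knockout groups Igf1 stayed above Pdgfb, at 98.6 ± 18.8 against 55.7 ± 5.16 FPKM in MyS3KO and at 85.3 ± 9.09 against 61.7 ± 11 FPKM in the libraries labelled MyS2KO.

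The knockout and floxed libraries of each line were then compared under each treatment. Without TGF-β1, no factor passed the test between the libraries labelled MyS2KO and Smad2 fl/fl, whereas 5 were lower in MyS3KO than in Smad3 fl/fl: Pdgfa, Pdgfb, Vegfa, Osm and Hbegf. With TGF-β1, Pdgfa, Pdgfb and Osm were lower in MyS3KO, and none was called in the Smad2 line. Among all genes 9.38% were called lower in untreated and 13.2% in treated MyS3KO, and in the Smad2 line 0.0701% and 0.421% were called in either direction, so calls were rare there for any gene. In the Smad2 line 0 members had an unadjusted p under 0.05 untreated and 5 with TGF-β1 (4 lower, 1 higher) by edgeR. Over all 14261 tested genes these counts were 1254 and 1313. DESeq2 called 0 members under both treatments and limma voom called 0 untreated and 1 with TGF-β1.

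**Figure D4:**
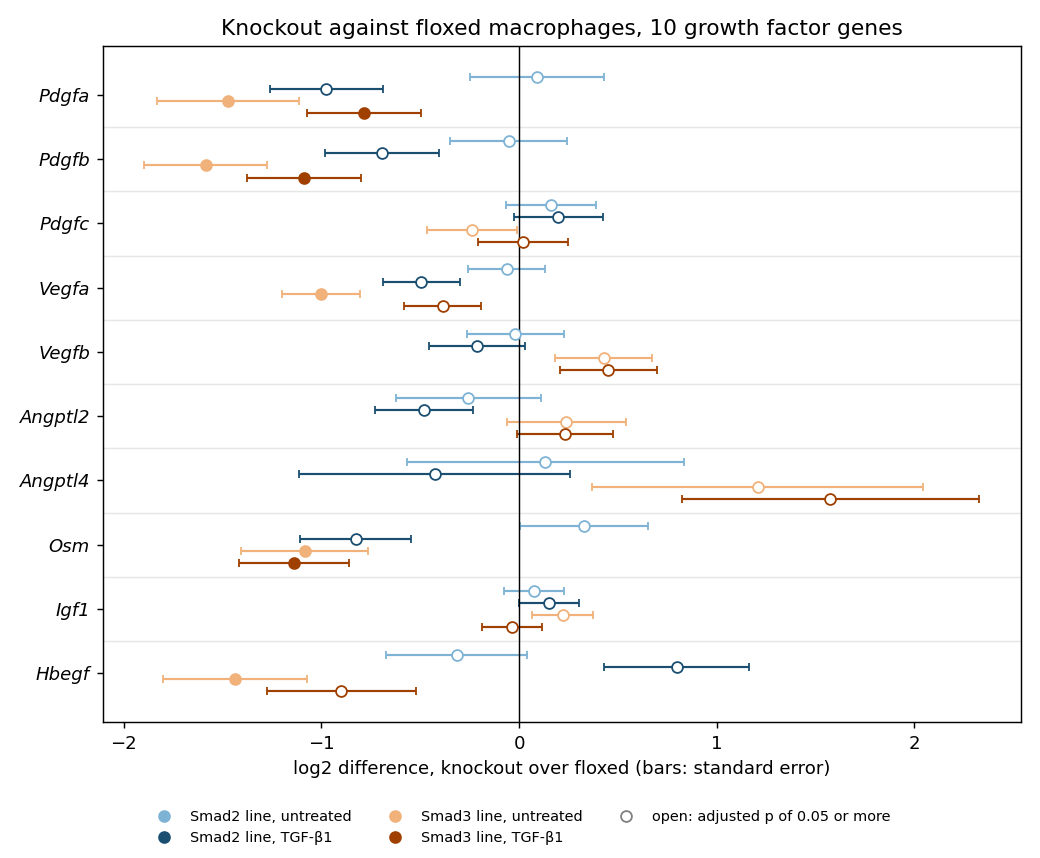
Log2 difference of knockout over floxed libraries (horizontal axis) for the 10 genes, by line and treatment, with standard errors; filled points passed an adjusted p of 0.05. Filled points occur in the Smad3 line, from -1.59 for untreated Pdgfb to -0.78 for treated Pdgfa.

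In untreated MyS3KO, Pdgfb was lower, with a log2 difference of -1.59 ± 0.31 (adjusted p = 0.0013), at 33.2% of the floxed mean, with no overlap. Vegfa was lower, with -1.003 ± 0.20 (adjusted p = 0.00139), at 49.9% of the floxed mean, and its floxed library 3 (90.1 CPM) lay close above the highest knockout library (87.8 CPM). Pdgfa was lower, with -1.47 ± 0.36 (adjusted p = 0.00676), but the groups overlapped and the difference was -0.80 (adjusted p = 0.0997) without floxed library 2. Hbegf was lower, with -1.44 ± 0.36 (adjusted p = 0.00896), as was Osm with -1.08 ± 0.32 (adjusted p = 0.0224). The Hbegf call was lost without floxed library 1 or without knockout library 2 or 3, and the Osm call without floxed library 1 or 2, without knockout library 2 or 3, or in a fit of the Smad3 line only, where adjusted p over all alternatives reached 0.0614 for Hbegf and 0.134 for Osm. Vegfb (0.43 ± 0.24), Igf1 (0.22 ± 0.15), Angptl2 (0.24 ± 0.30), Angptl4 (1.21 ± 0.84) and Pdgfc (-0.24 ± 0.23) were not called.

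With TGF-β1, Osm was lower in MyS3KO, with a log2 difference of -1.14 ± 0.28 (adjusted p = 0.00527), as was Pdgfb with -1.09 ± 0.29 (adjusted p = 0.00891), at 45.6% and 47.1% of the floxed means. For both genes the groups did not overlap. Pdgfa was lower, with -0.78 ± 0.29 (adjusted p = 0.0448), also with no overlap, but over 32 alternative settings its adjusted p reached 0.107 and the call held in 18 of 33 settings, this one included. Vegfa stood at 76.5% of the floxed mean (-0.39 ± 0.19, adjusted p = 0.141). Hbegf stood at 53.8% with no overlap (-0.90 ± 0.38, adjusted p = 0.0772). Means were above the floxed ones for Angptl4 at 298% (1.57 ± 0.75, adjusted p = 0.12), Vegfb at 136% (0.45 ± 0.25, adjusted p = 0.172) and Angptl2 at 117% (0.23 ± 0.24, adjusted p = 0.498), none called. Angptl4 was called with no low-count filter (1.56, adjusted p = 0.00028) and without both MyS3KO libraries numbered 1 (2.00, adjusted p = 0.0416). Unadjusted p by edgeR was under 0.05 for 5 members, 4 lower and 1 higher, against 5775 of all 14261 tested genes (2750 lower, 3025 higher). Groups did not overlap for 4 of the 10 members untreated and 5 with TGF-β1, against 25.7% and 46.4% of all genes.

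In treated libraries labelled MyS2KO, Pdgfa stood at 50.9% of the Smad2 fl/fl mean (-0.97 ± 0.29, adjusted p = 0.172), Osm at 56.4% (-0.83 ± 0.28, adjusted p = 0.264), Pdgfb at 61.9% (-0.69 ± 0.29, adjusted p = 0.412), Vegfa at 71% (-0.49 ± 0.20, adjusted p = 0.374) and Angptl2 at 71.6% (-0.48 ± 0.25, adjusted p = 0.582). None of these was called, although the 5 factors that respond to TGF-β1 were each lower in every treated library of the labelled knockout than in any treated floxed library. Those 5 were the members whose groups did not overlap, against 19.4% of all genes, and untreated it was 1 member (Hbegf), against 15.2%. Pdgfa passed the threshold in 4 of 33 settings, with limma voom, with the Smad2 line alone, without the low-count filter and without 1 library of the other line. Untreated, the differences of these 5 ran from -0.26 to 0.33 and their 95% intervals from -1.02 to 1.00.

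Whether the TGF-β1 response itself differed between knockout and floxed libraries was tested as the difference of the 2 log2 responses. No member was called in either line, where 0.00701% of all genes in the Smad2 line and 0.021% in the Smad3 line were called. In the Smad2 line the response of the labelled knockout was smaller for Osm by 1.15 ± 0.43 (unadjusted p = 0.0129, edgeR) and for Pdgfa by 1.06 ± 0.44 (unadjusted p = 0.0254), and larger for Hbegf by 1.11 ± 0.51 (unadjusted p = 0.0407). In the Smad3 line only Vegfa had an unadjusted p under 0.05 (unadjusted p = 0.0361 by edgeR's quasi-likelihood fit), with a larger response in the knockout by 0.62 ± 0.28. Over all 14261 tested genes, 489 in the Smad2 line and 917 in the Smad3 line had an unadjusted p under 0.05 by edgeR. DESeq2 and limma voom called 0 members in both. For Angptl2 in the Smad3 line the difference was -0.01 ± 0.35, with a 95% interval of -0.73 to 0.71, and for Pdgfb it was 0.50 ± 0.42 with an interval of -0.37 to 1.36.

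The knockout effects of the lines were compared directly in a test chosen after the values above were seen. In untreated libraries the effect on Pdgfb was lower in the Smad3 line, with a difference of -1.53 ± 0.43 (edgeR adjusted p = 0.0401), the only member called, against 2.84% of all genes called lower. This call held in 16 of 32 settings, and limma voom called 0 members while DESeq2 called 4. Unadjusted p was under 0.05 for 5 members, all lower in the Smad3 line: Pdgfa (-1.56), Pdgfb, Vegfa (-0.94), Osm (-1.41) and Hbegf (-1.12). Over all 14261 tested genes it was under 0.05 for 2984, of which 1545 were lower. With TGF-β1, where 7.09% of all genes were called, no member was called, 1 had an unadjusted p under 0.05 (Hbegf, -1.70 ± 0.53, adjusted p = 0.0521), and DESeq2 and limma voom each called 1. Of all genes 3623 had an unadjusted p under 0.05 there. The difference between the lines in how the knockout changed the response was called for no member, against 0.014% of all genes, with an unadjusted p under 0.05 for Pdgfa (1.75 ± 0.64) and Vegfa (1.05 ± 0.39), and DESeq2 and limma voom called 0 members. That unadjusted threshold was passed by 450 of all genes. Thus for Pdgfa, Vegfa, Osm and Hbegf, called lower in untreated MyS3KO and not called in the Smad2 line, the difference between lines did not pass the test.

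The floxed groups also differed before treatment. Against Smad2 fl/fl, untreated Smad3 fl/fl held more Vegfa (0.57 ± 0.20, adjusted p = 0.0305) and Angptl2 (0.87 ± 0.33, adjusted p = 0.0449) and less Angptl4 (-2.51 ± 0.80, adjusted p = 0.0202), while 33.4% of all genes were called. Groups did not overlap for 4 members (Osm, Angptl2, Angptl4 and Hbegf), against 38.4% of all genes. The Vegfa call was lost without Smad2 fl/fl library 1 or 2 or Smad3 fl/fl library 1 or 2, the Angptl2 call in 16 of 32 settings, and the Angptl4 call without Smad3 fl/fl library 2 or 3, without Smad2 fl/fl library 2 and without both libraries numbered 3. The response to TGF-β1 was not called different between the floxed groups for any member. Of all genes 0% were called by edgeR, 1 member (Vegfa, -0.64 ± 0.28) had an unadjusted p under 0.05, against 464 of all genes, and DESeq2 and limma voom called 0 members.

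The genes around these ligands were described from lists chosen with earlier results of these data known. For comparison, TGF-β1 changed 1584 of all 14261 tested genes in Smad2 fl/fl and 486 in the libraries labelled MyS2KO. It changed 1714 in Smad3 fl/fl and 1428 in MyS3KO, each in either direction. Of 21 receptor and coreceptor genes 15 were tested. In Smad2 fl/fl 2 rose (Itga5, and Igf2r, which clears IGF2, by 0.75 ± 0.16) and 3 fell, and the list's median was -0.13. Those that fell were Il6st, the shared gp130 chain through which oncostatin M signals (-0.95 ± 0.13, adjusted p = 1.23e-05), Lifr, its partner in the LIF receptor (-1.34 ± 0.33), and Pirb. Il6st fell in the other 3 genotypes as well, by -0.52 ± 0.13, -0.90 ± 0.13 and -1.03 ± 0.13. Osmr, the oncostatin M receptor gene, had group means of at most 0.0733 CPM. Those of Egfr were at most 0.357 CPM and those of Igf1r at most 1.1 CPM. Counts over the list were 1 up and 1 down in the libraries labelled MyS2KO, 2 up and 3 down in Smad3 fl/fl, and 2 up and 4 down in MyS3KO. Pdgfrb, the receptor of the PDGF B chain, was at 0.258 to 1.3 CPM in group means, whereas Kdr, which encodes VEGFR2, was at 29.9 to 123 CPM. Kdr changed by -0.60 ± 0.36 with TGF-β1 in Smad2 fl/fl and was not called. Flt1, which encodes VEGFR1, was higher in MyS3KO than in Smad3 fl/fl untreated (2.27 ± 0.38) and treated (2.66 ± 0.39). Its means were 25.1 ± 11.8 and 27.8 ± 16.8 CPM in MyS3KO and 5.19 and 4.4 CPM in Smad3 fl/fl. In Smad2 fl/fl they were 10.8 and 11.5 CPM, and untreated Smad3 fl/fl was called lower than untreated Smad2 fl/fl. Over the list, untreated MyS3KO had 1 gene called higher and 2 lower (Insr, Itga5). With TGF-β1, 2 were higher (Flt1, Pirb) and 1 lower (Insr).

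Of 22 other ligands of these families that were present in the table, 9 had enough counts to be tested. None was called with TGF-β1 in Smad2 fl/fl, in the libraries labelled MyS2KO or in Smad3 fl/fl by edgeR, DESeq2 or limma voom, and 0 had an unadjusted p under 0.05. In MyS3KO the cytokine Il6 was lower (2.6 to 0.249 CPM, -3.39 ± 0.93, adjusted p = 0.0198), a call that limma voom did not make. Vegfc, the lymphatic VEGF, was at 0.144 and 0.339 CPM in Smad2 fl/fl (1.23 ± 0.76, adjusted p = 0.34).

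Of 16 genes of growth factor processing and shedding, which are proteases, the urokinase receptor and the non-catalytic iRhoms, 11 were tested. Of these 5 rose in Smad2 fl/fl, 1 in the libraries labelled MyS2KO, 5 in Smad3 fl/fl and 3 in MyS3KO. Furin, the proprotein convertase that cleaves PDGF chains, rose in all 4 (89.5 to 261 CPM in Smad2 fl/fl, with log2 changes of 1.54, 1.23, 1.70 and 1.80). Plau, the urokinase protease, and its receptor Plaur rose in Smad2 fl/fl (0.86 ± 0.23 and 1.57 ± 0.32), Smad3 fl/fl and MyS3KO. In the libraries labelled MyS2KO Plau changed by 0.35 ± 0.23 (adjusted p = 0.654) and Plaur by 0.93 ± 0.32 (adjusted p = 0.143), and the difference in response from Smad2 fl/fl was not called for either (-0.52 ± 0.32 and -0.64 ± 0.45). Adam10 (0.66 ± 0.20) and Adam17 (0.41 ± 0.13, adjusted p = 0.0395), the sheddases of EGF family ligands, were called higher in both floxed groups and not in the knockouts, although no difference in response between knockout and floxed was called for either gene. Adam17 was lower in treated MyS3KO than in treated Smad3 fl/fl (434 against 586 CPM, -0.43 ± 0.13, adjusted p = 0.0169). Pcsk7, another convertase, fell in both floxed groups (-0.51 ± 0.16 and -0.59 ± 0.16).

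Of 6 tested binding proteins and lipase genes, Cd9, a tetraspanin that associates with the HB-EGF precursor, rose in 3 genotypes (0.93, 1.07 and 1.19), and the other 5 were not called in any. In the libraries labelled MyS2KO none was called by edgeR, DESeq2 or limma voom, and 1 had an unadjusted p under 0.05. Lpl, the lipase that ANGPTL4 inhibits, went from 2031 to 1371 CPM in Smad2 fl/fl (-0.57 ± 0.32, adjusted p = 0.285). Of 11 tested PPAR target genes, a group to which Angptl4 belongs, 0 were called by edgeR with TGF-β1 in Smad2 fl/fl, the libraries labelled MyS2KO or Smad3 fl/fl, with unadjusted p under 0.05 for 3, 1 and 3 genes. Among all 14261 tested genes these unadjusted counts were 3454, 1671 and 3527. DESeq2 called 1 PPAR target in Smad2 fl/fl and none in the other 2, and limma voom none in the 3.

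Vegfa is a textbook target of the hypoxia-inducible factors, and 18 other such targets were all tested. With TGF-β1, 3 rose and 2 fell in Smad2 fl/fl, 2 rose and 1 fell among the libraries labelled MyS2KO, 2 rose and 2 fell in Smad3 fl/fl, and 3 rose and 1 fell in MyS3KO. Hk2, the first glycolytic enzyme, and Mxi1, a MYC antagonist, rose in all 4, and Ndrg1, a stress-response gene, fell in all 4 (-1.73, -0.82, -1.33 and -1.20). The median of the 18 was 0.05, 0.14, -0.07 and 0.25, against the responses of 0.80 to 1.44 for Vegfa. In untreated MyS3KO, where Vegfa was lower, 8 of the 18 were lower and 1 higher than in Smad3 fl/fl. Examples are Adm, the vasodilator peptide gene (47.7 to 8.76 CPM, -2.45 ± 0.34), Egln3, an oxygen-sensing hydroxylase (-1.92 ± 0.35), and Slc2a1, the glucose transporter (-0.78 ± 0.16). With TGF-β1 2 were higher and 4 lower, and the median difference of the list was -0.02 against -0.38 untreated. Of all 14261 tested genes, 2531 were called in either direction untreated and 4017 with TGF-β1. Before treatment 10 of the 18 were higher and 1 lower in Smad3 fl/fl than in Smad2 fl/fl, where 33.4% of all genes were called. Vegfa was higher there as well. Whether hypoxia-inducible factors had a part in the differences of Vegfa was not tested. Of the 16 tested TGF-β feedback and SMAD target genes 12, 13, 11 and 13 rose in the 4 genotypes in the order above, and the others were not called. Smad7, the inhibitory SMAD, went from 1.07 to 42.4 CPM in Smad2 fl/fl (5.32 ± 0.23).

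The 5 factors that rose also moved together over the 24 libraries. Pearson's r of their log2 CPM ran from 0.80 (Vegfa with Angptl2) to 0.96 (Pdgfa with Pdgfb), a description over libraries that share the treatment groups. Igf1 correlated with Pdgfb at -0.63. The genes most like Pdgfa among 11146 genes were Bcl2l11, which encodes the pro-apoptotic BIM (r = 0.977), Sgk1, a kinase gene (r = 0.977), and 1700017B05Rik (r = 0.975). Most like Pdgfb were Phldb1 (r = 0.971) and 1700017B05Rik (r = 0.968), and most like Angptl2 were Cxcr4, a chemokine receptor gene (r = 0.985), B4galt7 (r = 0.982) and Gde1 (r = 0.982). Osm was most like Plec (r = 0.960), Fhad1 (r = 0.958) and Dot1l (r = 0.957), and Vegfa most like Cttnbp2nl (r = 0.949), Blm (r = 0.944) and Akap13 (r = 0.941). For the members without a common response the nearest genes were less alike: Angptl4 with Trem2 (r = 0.906), Igf1 with Rgs18 (r = 0.903), Vegfb with Pccb (r = 0.864), Hbegf with Dusp8 (r = 0.833) and Pdgfc with Arhgef18 (r = 0.641).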

How the data were processed

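Polyadenylated RNA of 24 bone marrow macrophage libraries was sequenced as paired reads after NEBNext Ultra preparation, per the labels' protocols, which speak of 8 libraries in all where 24 samples are listed. The deposited gene-level read counts and FPKM come from TopHat2 2.0.9, HTSeq 0.6.1 and Cufflinks 2.1.1 on mm10 (GRCm38.p6), per the submitters' processing notes, which do not say which tool made which value. The deposited FPKM equal count over library total and a fixed length per gene, so they are no second measurement. From the counts, edgeR 4.0.16 (R 4.3.3) fitted 1 quasi-likelihood model of 8 group means with TMM scaling to 14261 genes kept by filterByExpr of 54532, of which 26189 had no read. Benjamini-Hochberg adjustment ran over all tested genes in each comparison, and calls are at adjusted p under 0.05. Intervals are 95% intervals of the fitted log2 differences. Depth of 16.9 M to 24.9 M reads and a median biological coefficient of variation of 21.2% set the precision. Alternatives used DESeq2 1.42.0, limma voom 3.58.1, other scalings, no filter, single lines, a replicate block and libraries left out.

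The named genes are all 10 members, and of each list up to 3 called genes per direction with the largest changes with TGF-β1, plus uncalled ones. Adam10, Adam17 and the list genes named between knockout and floxed libraries were named after their values were seen. The members and lists were chosen with earlier results of these data known. Genes most like a member are the 3 with the highest Pearson's r of log2 CPM over the 24 libraries, of which the text gives 1 to 3. Some list and most-alike genes are not reported here. The script was tested on simulated counts. Replicate numbers from the labels were taken to pair treated and untreated libraries where deviations from group means correlated over 0.1 in every pair. This held in the libraries labelled MyS2KO (0.25, 0.33 and 0.55) and in Smad3 fl/fl (0.54, 0.42 and 0.42). The highest correlation between unlike numbers was 0.29 in MyS2KO, above its lowest same-number pair, and -0.11 in Smad3 fl/fl.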

Additional observations from a re-analysis of the deposited data

Results flagged for a closer look

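The knockout effect on Pdgfb in untreated libraries was called different between the lines, a call that held in 16 of 32 settings. The log2 difference of knockout over floxed was -1.59 ± 0.31 in the Smad3 line and -0.05 ± 0.30 in the Smad2 line, and their difference was -1.53 ± 0.43 (edgeR adjusted p = 0.0401). Pdgfb was lower than every Smad3 fl/fl library in 3 of 3 untreated MyS3KO libraries, and knockout and floxed libraries overlapped in the Smad2 line. The comparison was chosen after seeing the data, and adjusted p over its alternatives ran from 1.33e-06 to 0.103. The replicate block ended the call (adjusted p = 0.059), although the replicate numbers did not pair knockout with floxed libraries. Limma voom called 0 members.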

How the results depend on the processing

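Over the alternatives run for the 10 members, 4640 results kept their direction and side of the threshold or stayed close in value, 72 lost a call, 64 gained one, 124 values moved otherwise, and none called on both sides changed sign. Members called with TGF-β1 ranged from 5 to 6 in Smad2 fl/fl, 5 to 5 in the libraries labelled MyS2KO, 4 to 5 in Smad3 fl/fl and 5 to 6 in MyS3KO when 1 library was left out. The ranges for knockout against floxed libraries were 0 to 0 untreated and 0 to 1 treated in the Smad2 line, 3 to 6 and 2 to 3 in the Smad3 line. They were 0 to 0 for both differences in response, for the floxed responses and for the comparison of those differences between lines, 0 to 4 for untreated Smad3 fl/fl against Smad2 fl/fl, and 0 to 4 untreated and 0 to 1 treated for the knockout effects between lines. The 3 in untreated MyS3KO came without Smad3 fl/fl library 1, and the 0 between floxed groups without Smad2 fl/fl library 2.

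Counts over all genes with 1 library left out ran from 1095 to 1901, 321 to 572, 1172 to 2005 and 936 to 1579 for TGF-β1 in the 4 genotypes (1584, 486, 1714 and 1428 with all libraries), the lowest without MyS2KO treated library 1 for the second and without MyS3KO treated library 3 for the fourth. They ran from 3 to 22 (10) and 0 to 91 (60) in the Smad2 line and 1389 to 3594 (2531) and 2246 to 4515 (4017) in the Smad3 line, the lowest without Smad3 fl/fl library 2 of the same treatment; the 3 and 0 came without MyS2KO untreated library 2 and Smad2 fl/fl treated library 1. They ran from 0 to 1 (1) and 0 to 6 (3) for the differences in response, 2773 (without Smad3 fl/fl untreated library 2) to 5922 (4762) between floxed groups, 0 to 2 (0) and 1 to 4 (2) for the differences between lines in response and in knockout change of response, and 251 (without MyS3KO untreated library 3) to 1966 (703) and 364 (without Smad3 fl/fl treated library 2) to 1675 (1011) for the knockout effects between lines. Smad3 fl/fl untreated library 3 gave the highest count in most of these when left out.

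With the replicate block, calls over all genes were 3237, 1032, 3306 and 2749 for TGF-β1 in the 4 genotypes, 19 for untreated MyS2KO against Smad2 fl/fl, 2 and 6 for the differences in response, 13 for the floxed responses and 16 for the knockout change between lines. Between lines it called 2 members untreated and 1 treated. The numbers did not pair Smad2 fl/fl (r of 0.04 for 1 pair), MyS3KO (0.07 for 1 pair) or knockout with floxed libraries. Among members the block ended the calls of Pdgfa in treated MyS3KO against Smad3 fl/fl (adjusted p = 0.0587) and of Pdgfb between lines (adjusted p = 0.059), and added Angptl4 with TGF-β1 in MyS3KO (adjusted p = 0.0423).

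Without both Smad3 fl/fl libraries numbered 3, 999 genes were called for TGF-β1 in Smad3 fl/fl, 22 for untreated MyS2KO, 1 for the floxed responses, and 4 members and 1882 genes for the untreated knockout effects between lines. Without both MyS3KO libraries numbered 1, 19 and 136 genes were called in the Smad2 line, 0 for the response difference in the Smad3 line, 1 for the knockout change between lines, 3 members and 1802 genes untreated and 1 member and 1663 genes treated between lines. With no low-count filter the counts were 161 genes for untreated MyS2KO, 2 members and 313 genes treated, 13 and 161 for the response differences, 22 for the floxed responses, 12 for the knockout change, and 4 members and 1240 genes untreated and 1 member and 1908 genes treated between lines. DESeq2 called 80 and 221 genes in the Smad2 line, 8 and 9, 11 and 10 for those differences in order, and 4 members and 1208 genes and 1 member and 1672 genes between lines. Limma voom called 1 member and 96 genes in treated MyS2KO, 1 gene each for the Smad3-line response difference, the floxed responses and the knockout change, and 0 members untreated and 1 treated between lines. The line alone gave 1 member and 136 genes in treated MyS2KO, 1499 in untreated MyS3KO and 0 and 0 for the response differences. Library totals gave 2 and 0 genes for these and 2 members untreated and 1 treated between lines, and RLE factors gave 1 gene for the Smad3-line response difference. The cause of these changes was not tested.

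Scaling by library total moved the median of all genes by 0.12 for TGF-β1 in Smad3 fl/fl (share of calls that were higher, 53.1% to 64.8%), by -0.11 for treated MyS3KO against Smad3 fl/fl (53.3% to 42%) and by 0.12 for Smad3 fl/fl against Smad2 fl/fl (53.1% to 64%). Hbegf and Angptl4 lay near 1 CPM in several groups, where few reads limit what could be detected.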
